A study of Mus musculus with 8 samples.

Results

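The transcripts of 9 genes of the AP-1 family were followed through fat cell formation in the mouse preadipocyte line 3T3-L1, whose fibroblast-like cells become fat cells when given hormones. The 9 genes, Fos, Fosb, Fosl1, Fosl2, Jun, Junb, Jund, Atf3 and Batf3, were chosen by symbol from the 22798 genes of the deposited table, and each symbol had 1 row. The 8 RNA-seq libraries were 2 from each of 4 stages. The proliferation libraries came from cells in exponential growth, the quiescence libraries from cells kept confluent for 48 hours, the clonal expansion libraries from cells 10 hours after the adipogenic cocktail, and the differentiation libraries from cells 6 days after it. The cocktail held insulin at 5 µg/µl, dexamethasone (a glucocorticoid) at 1 µM and isobutylmethylxanthine, which raises cyclic AMP, at 0.25 mM, with the insulin unit as labelled. The differentiation cells had the cocktail for 48 hours and insulin alone after that. All cells grew in DMEM with fetal bovine serum at 10% and with penicillin and streptomycin at 1%, under 5% CO2 at 37 °C. The line derives from 1 strain, labelled Swiss albino, and all 8 libraries are of this line, so the values describe a cell culture model and not fat tissue. Each stage has a library of experiment 1 and a library of experiment 2 in the labels, which do not say that these were separate cultures, so p-values rest on a spread that may be technical.

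AP-1 is a transcription factor made of pairs of proteins that each carry a basic DNA-binding region and a leucine zipper. Jun proteins pair with themselves or with Fos proteins, while Fos proteins need a Jun partner, and ATF and BATF proteins join the same pairs. The pairs bind the AP-1 site or the closely related cyclic AMP response element (CRE). Fos, Fosb, Jun, Junb and Atf3 are immediate early genes, whose transcripts appear within minutes of serum, growth factors, stress or cyclic AMP signals and are short-lived. Fosl1 and Fosl2 encode the later Fos-related antigens, and Jund is the Jun gene that many resting cells express. In preadipocytes, AP-1 genes are known to respond to the adipogenic hormones before the fat cell regulators appear.

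The promoter windows of 5 members are shown because 4 of them, Fos, Fosb, Jun and Junb, differed most between the proliferation libraries and the fifth, Atf3, rose most of the 9 at differentiation against clonal expansion. Each window holds 300 bases, from 250 before to 50 after the annotated start, from RefSeq on build GRCm38.p6, 5′ to 3′ on the gene's strand. Capitals mark TGACG, the core of a CRE, on either strand (CGTCA on the other), or the 8-base AP-1 type site TGACATCA. The windows are Fos at chr12:85473640-85473939 (+), Fosb at chr7:19309996-19310295 (−), Jun at chr4:95052173-95052472 (−), Junb at chr8:84978699-84978998 (−) and Atf3 at chr1:191183284-191183583 (−).
Fos: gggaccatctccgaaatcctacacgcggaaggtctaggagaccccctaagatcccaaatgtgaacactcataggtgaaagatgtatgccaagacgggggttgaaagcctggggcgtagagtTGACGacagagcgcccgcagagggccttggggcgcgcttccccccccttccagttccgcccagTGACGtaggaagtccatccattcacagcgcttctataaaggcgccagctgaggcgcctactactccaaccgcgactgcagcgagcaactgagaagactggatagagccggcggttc
Fosb: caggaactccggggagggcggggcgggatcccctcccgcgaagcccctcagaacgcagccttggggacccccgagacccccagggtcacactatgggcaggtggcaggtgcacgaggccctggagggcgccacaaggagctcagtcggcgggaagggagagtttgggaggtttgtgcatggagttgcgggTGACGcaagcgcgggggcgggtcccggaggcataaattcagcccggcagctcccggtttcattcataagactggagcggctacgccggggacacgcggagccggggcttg
Jun: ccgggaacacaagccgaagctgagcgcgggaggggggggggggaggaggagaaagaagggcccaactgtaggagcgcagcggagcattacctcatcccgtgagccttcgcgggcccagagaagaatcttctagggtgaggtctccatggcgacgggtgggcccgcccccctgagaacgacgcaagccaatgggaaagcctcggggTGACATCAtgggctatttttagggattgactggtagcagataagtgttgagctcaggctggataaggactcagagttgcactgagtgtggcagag
Junb: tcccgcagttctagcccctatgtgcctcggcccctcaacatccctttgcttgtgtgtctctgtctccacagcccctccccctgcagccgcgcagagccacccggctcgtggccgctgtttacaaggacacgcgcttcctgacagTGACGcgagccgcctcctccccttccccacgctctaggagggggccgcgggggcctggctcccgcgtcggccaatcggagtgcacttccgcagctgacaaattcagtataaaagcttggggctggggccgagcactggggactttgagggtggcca
Atf3: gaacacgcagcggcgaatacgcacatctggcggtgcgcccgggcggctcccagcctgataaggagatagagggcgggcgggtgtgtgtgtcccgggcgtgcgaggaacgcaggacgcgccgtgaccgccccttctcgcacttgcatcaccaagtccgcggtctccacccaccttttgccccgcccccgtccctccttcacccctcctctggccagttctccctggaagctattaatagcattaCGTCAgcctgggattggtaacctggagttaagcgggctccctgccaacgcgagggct
Positions below are counted from the start base as 0. Fos had TGACG at -129 to -125 and at -66 to -62, Fosb at -60 to -56 and Junb at -106 to -102, and Atf3 had CGTCA at -7 to -3. The Jun window held TGACATCA at -45 to -38, a kind of site that is known in the human JUN promoter to be bound by Jun with ATF2. Windows were found for 8 of the 9 members, and Fosl1 is named only. The core TGACG was in 4 of those 8, against 20.81% of all 32851 windows of this length, and TGACATCA in 1, against 3.619%. The full CRE TGACGTCA (1.79% of all windows) and the CArG box, the site of serum response factor (1.629%), were each in 0 of the 8 windows. TGANTCA, a looser form of the AP-1 site with any base at N (7.808% of all windows), was also in 0 of the 8. The letters TATAA were in 2 (24.87% of all windows), in Fos at -33 to -29 and in Junb at 0 to 4. All motifs were searched on both strands, and a full CRE contains the core. A match is a description of letters and not a shown binding site. Sites more than 250 bases before or 50 after the annotated start lay outside the windows, so a count of 0 does not speak to them. Whether the annotated start is the one used in these cells was not tested.

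Values are pseudo-counts, read counts that the authors scaled between libraries by relative log expression. Their sums were not equal, at 1.22e+08 to 1.27e+08 in the libraries before the cocktail and 1.47e+08 to 1.52e+08 in those after it. Fold changes are on the scale of log2(value + 1), and a gene was called where limma gave an adjusted p under 0.05 over the 14647 genes with a mean of at least 10, which include all 9 members. The 7 markers of fat cells, all tested, summed to 4540290 and 4868360 pseudo-counts at differentiation, against 55699.5 to 136153 in the libraries of the other stages. The 8 preadipocyte or fibroblast markers summed to 1267490 and 1522790 at differentiation, against 1774890 to 4180960 before it, so transcripts of that kind were present at all stages. Markers of macrophages and blood (7 of 8 in the table) summed to 1199 to 6813, with Emr1 at most 1.03 and Ptprc at most 2.73 pseudo-counts. Others of that list were present, with Lyz2 up to 4318, Cd14 up to 2004, Cd68 up to 402 and Csf1r up to 201. The 4 endothelial markers summed to at most 297 and the 4 epithelial ones to at most 167, with Epcam below 1 pseudo-count in every library. Of these, Krt14 had 163 and 96.5 at differentiation, against 1.04 and 1.41 at proliferation, and Krt5 was below 1 in the 4 libraries after the cocktail, against 101 and 96.4 at proliferation. The part of these other cell type markers in the results was not tested. In bulk RNA, fewer cells of a type and less RNA per cell cannot be told apart. The libraries do not record strand, so reads from a gene and from an antisense transcript cannot be told apart, and no member overlapped another row of the table.

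The library from proliferation experiment 2 stood apart for the AP-1 genes. Fos was higher in experiment 2 than in experiment 1 by 4.08 on the log2 scale, the largest such difference of all 14647 genes. Junb (2.14), Fosb (2.06), Jun (1.22) and Batf3 (1.16) were also more than 2-fold higher there, Fosl1 (0.86), Atf3 (0.80) and Fosl2 (0.38) less so, and Jund differed by -0.089. Only 144 genes, 0.983% of those tested, were at least 2-fold higher in experiment 2, and 257 (1.75%) were at least 2-fold lower. Other immediate early genes lay beside Fos at the top. The 11471 genes ranked had at least 200 pseudo-counts in either proliferation library. Egr2 had 785 and 7662 pseudo-counts in experiments 1 and 2, and Nr4a1 had 2463 and 16853. Ier2 had 7248 and 48574, and Egr1, a zinc finger factor, had 16082 and 80363. Of 29 other immediate early genes tested, 12 were at least 2-fold higher in experiment 2, with a median difference of 0.75. The dual specificity phosphatases, which switch off MAP kinases, had 3 of 11 at least 2-fold higher and the heat shock genes 0 of 10. The members of the integrated stress response had 0 of 14. The cause of the difference between these libraries was not tested, and the members' comparisons with proliferation are given below with and without experiment 2. The 4 stages share 1 estimate of spread, so this library also widened the errors of Fos, Fosb, Jun and Junb in the comparisons that do not use it.

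**Figure D1:**
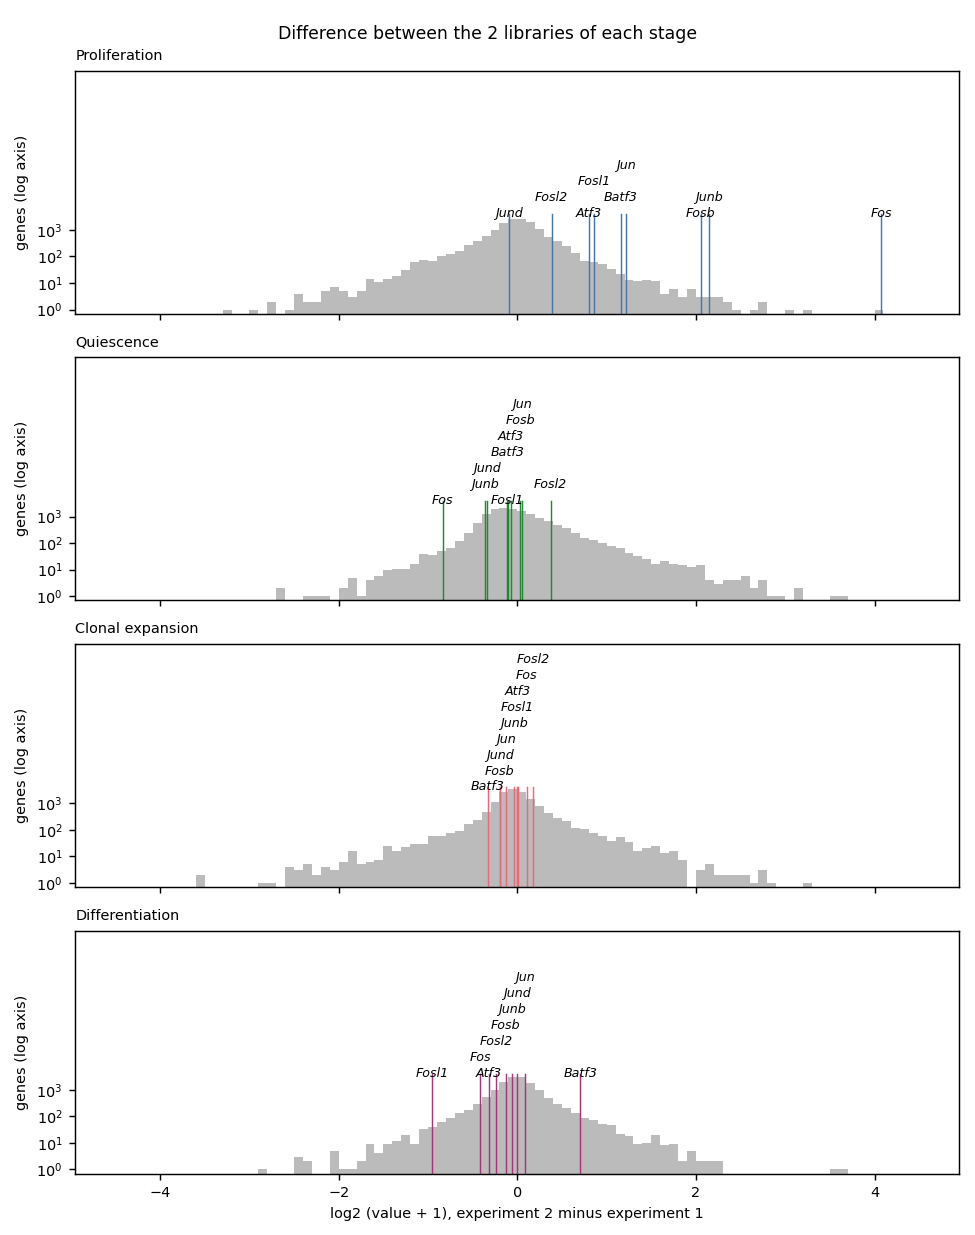
Difference between experiments 2 and 1 of each stage on the log2(value + 1) scale, as a histogram of the 14647 genes tested (gene number on a log axis) with a coloured line for each AP-1 gene. At proliferation Fos lies at 4.08, beyond all other genes, with Junb and Fosb above 2, while at clonal expansion all 9 members lie close to 0.

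All 9 members lay between -0.33 and 0.18 at clonal expansion, where the median gene differed by 0.128 in size. At differentiation, Fosl1 was lower in experiment 2 by 0.95 on the log2 scale, and 132 genes (0.901%) were lower still. At quiescence, Fos was lower in experiment 2 by 0.83, while 1235 genes of similar transcript length had a median difference of -0.18. Fosl2, a long transcript, differed there by 0.37 and Jund, a short one, by -0.34, beside medians of 0.24 and -0.22 for genes of their own length, so both differed in the same direction as genes of their own length.

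Fosl1 had the steepest change of the Fos genes after the cocktail. Fosl1 (gene 14283, chr19:5447698-5450351, mm9), which encodes Fra-1, a Fos protein without the strong activation domain of Fos, had 788 and 1427 pseudo-counts in the proliferation libraries, 392 and 363 in those of quiescence, 11469.8 and 11426 in those of clonal expansion and 3935 and 2033 in those of differentiation. Both clonal expansion libraries were far above all others and both quiescence libraries below all others, so no 2 stages overlapped. Fosl1 rose 30.3-fold at clonal expansion against quiescence (log2 4.92 ± 0.31 SE, limma adjusted p = 8.09e-07). It fell 4.05-fold at differentiation against clonal expansion (adjusted p = 0.000192) but was above quiescence by 2.90 (1.69e-05) and above proliferation by 1.41 (0.00230, or 1.84, 0.00125, without proliferation experiment 2) on the log2 scale. At quiescence it was lower than at proliferation by -1.49 ± 0.31 (adjusted p = 0.00743), a call that was lost without proliferation experiment 2 (-1.06, 0.0840). The order of the stages was therefore clonal expansion, differentiation, proliferation and quiescence. The last pair of neighbours was called apart only when that library was used, and not without the filter on low values (limma adjusted p = 0.115).

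Fosl2 (gene 14284, chr5:32438845-32460212, mm9), which encodes Fra-2, also peaked at clonal expansion but over a much smaller range. It had 13385 and 17453 pseudo-counts in the proliferation libraries, 16276 and 21055 in those of quiescence, 29779 and 33649 in those of clonal expansion and 12702 and 10804 in those of differentiation. The clonal expansion libraries lay above all others and the differentiation libraries below all others, while proliferation and quiescence overlapped. Fosl2 rose 1.71-fold at clonal expansion against quiescence (0.77 ± 0.16, limma adjusted p = 0.00175) and by 1.05 against proliferation (0.000285, or 1.24, 0.000606, without proliferation experiment 2). At differentiation it fell by 1.43 against clonal expansion (2.09e-05) and by 0.66 against quiescence (0.00472), the last of which was not called without differentiation experiment 2 (-0.54, 0.0553). Quiescence and proliferation did not differ beyond their spread (0.28 ± 0.16, adjusted p = 0.250, or 0.47, 0.168, without proliferation experiment 2). Differentiation against proliferation missed the threshold (-0.38, 0.0580), though it passed without proliferation experiment 1 (-0.58, 0.0233) or either quiescence library (0.0260 and 0.0258) and with every library scaled to the same total (-0.66, 0.00533). Without proliferation experiment 2 it was -0.19 (0.387).

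**Figure D2:**
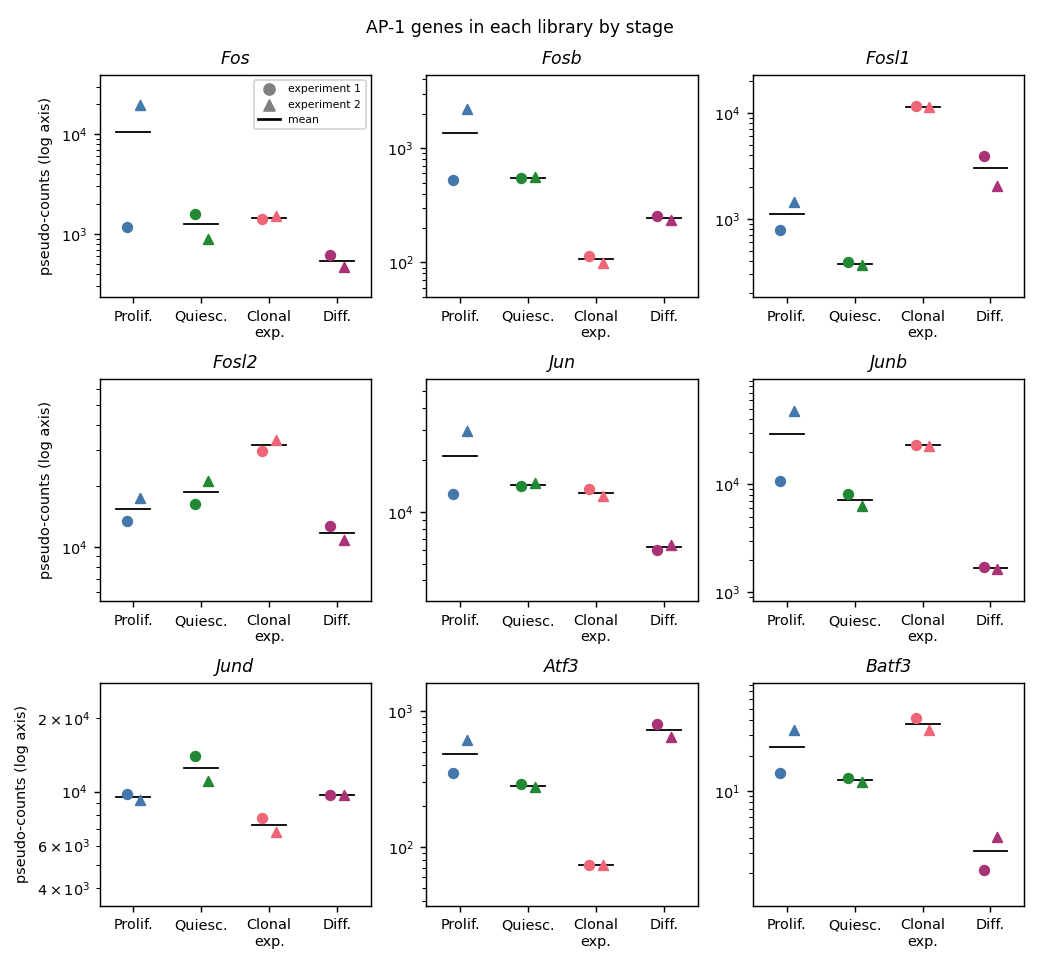
Pseudo-counts of the 9 AP-1 genes in each library (log axis, scaled separately for each gene) at proliferation, quiescence, clonal expansion and differentiation. Circles are experiment 1, triangles experiment 2 and bars the mean of 2 libraries. Fosl1, Fosl2 and Batf3 were highest at clonal expansion by mean, Atf3 at differentiation and Jund at quiescence, and the high triangles of Fos, Fosb, Jun and Junb are proliferation experiment 2.

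Fos itself (gene 14281, chr12:86814851-86818219, mm9), the partner of Jun in the classical AP-1 pair, had 1176 and 19843 pseudo-counts in the proliferation libraries, 1599.9 and 897 in those of quiescence, 1404 and 1509 in those of clonal expansion and 622 and 466 in those of differentiation. The differentiation libraries were below all others, clonal expansion lay within the range of quiescence, and quiescence overlapped proliferation. Fos was lower at differentiation than at proliferation (-3.16 ± 0.95, limma adjusted p = 0.0136), and without proliferation experiment 2 the difference was -1.13 (0.0155). Without proliferation experiment 1 it was -5.20 (3.16e-06), and it was not called without either differentiation library (-3.37, 0.0602 and -2.96, 0.0883). No neighbours in the order proliferation, clonal expansion, quiescence and differentiation were called apart. Clonal expansion differed from quiescence by 0.28 ± 0.95 (0.807), which turned to -0.14 (0.924) without quiescence experiment 2, and from proliferation by -1.73 (0.136). Quiescence differed from proliferation by -2.01 (0.158). Both of these depended on which proliferation library was kept: without experiment 2 the values were 0.31 and 0.027, and without experiment 1 they were -3.77 and -4.05. Differentiation against clonal expansion (-1.43, 0.198) and against quiescence (-1.15, 0.308) missed the threshold in the full set. Without proliferation experiment 2 the same differences passed it (0.00119 and 0.00457), as they did without experiment 1 (0.00109 and 0.00422).

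Fosb (gene 14282, chr7:19888045-19895394, mm9), the close relative of Fos, ran against Fosl1. It had 529 and 2203 pseudo-counts in the proliferation libraries, 543 and 555 in those of quiescence, 113 and 99.0 in those of clonal expansion and 255 and 233 in those of differentiation. Both clonal expansion libraries were below all others and both differentiation libraries below those of quiescence and proliferation, which overlapped. Fosb was lower at clonal expansion than at quiescence (-2.36 ± 0.49, limma adjusted p = 0.00170) and than at proliferation (-3.34, 0.000214), where the value was -2.31 (5.43e-05) without proliferation experiment 2 and -4.37 (5.59e-06) without experiment 1. At differentiation it was lower than at proliferation by -2.15 (0.00308), or -1.12 (0.00176) without experiment 2 and -3.17 (3.64e-06) without experiment 1. Differentiation was above clonal expansion by 1.19 ± 0.49, with an adjusted p of 0.0499797 that lies at the threshold. That call was lost without quiescence experiment 1 (0.0503), either clonal expansion library (0.0824 and 0.132) or either differentiation library (0.180 and 0.138), and was 0.000261 without proliferation experiment 2. It was also lost with every library scaled to the same total (0.0523) and with quantile normalization (0.45, 0.462). Quiescence against proliferation was not called (-0.98, 0.184). It was 0.053 (0.920) without experiment 2 and -2.003 (0.000393) without experiment 1. Differentiation against quiescence missed the threshold (-1.17, 0.0582) and passed it without proliferation experiment 2 (0.000358) or 1 (0.000278).

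Among the Jun genes, Junb varied most. Junb (gene 16477, chr8:87500808-87502647, mm9), whose protein activates more weakly than Jun and can oppose it, had 10689 and 47193 pseudo-counts in the proliferation libraries, 8106 and 6303 in those of quiescence, 23217 and 22624 in those of clonal expansion and 1710.4 and 1643 in those of differentiation. The differentiation libraries were the lowest and those of quiescence the next, while both clonal expansion libraries fell between the 2 of proliferation. Junb rose 3.21-fold at clonal expansion against quiescence (1.68 ± 0.50, limma adjusted p = 0.0125, or 1.16e-05 without proliferation experiment 2), a call lost when no filter on low values was used (0.137). It fell 13.7-fold at differentiation against clonal expansion (-3.77 ± 0.50, 6.63e-05) and by 2.09 against quiescence (0.00403). Against proliferation it fell by 3.74 (8.16e-05), which was -2.67 (3.14e-06) without proliferation experiment 2 and -4.81 (1.62e-07) without experiment 1. The comparison of clonal expansion with proliferation had no direction of its own, at 0.029 ± 0.50 (0.964), and was -0.25 with every library scaled to the same total. Without experiment 2 it was 1.10 (0.000560) and -1.04 (0.000831) without experiment 1. Quiescence was below proliferation by -1.65 (0.0386) and by -2.72 (5.56e-05) without proliferation experiment 1. That call was lost without proliferation experiment 2 (-0.58, 0.0603), either quiescence library (0.0554 and 0.104) or either differentiation library (0.0817 and 0.0814).

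Jun (gene 16476, chr4:94715727-94718913, mm9), the strongest activator of its family, was lowest at differentiation. It had 12724 and 29638 pseudo-counts in the proliferation libraries, 14119 and 14658 in those of quiescence, 13509.8 and 12354 in those of clonal expansion and 6031 and 6390.1 in those of differentiation. Apart from proliferation experiment 2, the libraries of the first 3 stages lay within 12354 and 14658, and both differentiation libraries were below them. Jun was lower at differentiation than at clonal expansion (-1.06 ± 0.29, limma adjusted p = 0.00780) and at quiescence (-1.21, 0.00417). The clonal expansion comparison was not called without differentiation experiment 1 (-1.02, 0.0571). Against proliferation Jun fell by 1.65 (0.000590), which was -1.04 (0.000125) without proliferation experiment 2 and -2.26 (1.59e-06) without experiment 1. Clonal expansion differed from quiescence by -0.16 ± 0.29 (0.655). Against proliferation, quiescence (-0.43, 0.317) and clonal expansion (-0.59, 0.101) were not called, and without proliferation experiment 2 both turned round, to 0.18 (0.444) and 0.022 (0.889). Without experiment 1 they were -1.04 (0.000759) and -1.20 (0.000113). With every library scaled to the same total, Jun was called lower at clonal expansion than at proliferation (-0.86, 0.0249), as it was with quantile normalization (-0.83, 0.0329).

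Jund (gene 16478, chr8:73221638-73224515, mm9), the Jun gene of resting cells, changed least of the 9, with its highest library 2.06 times its lowest. It had 9802 and 9219 pseudo-counts in the proliferation libraries, 14003 and 11066 in those of quiescence, 7769.9 and 6796 in those of clonal expansion and 9654 and 9658 in those of differentiation. The quiescence libraries were the highest and those of clonal expansion the lowest, and differentiation lay within the range of proliferation. Jund was lower at clonal expansion than at quiescence by -0.78 ± 0.13 (limma adjusted p = 0.000329). It was higher at differentiation than at clonal expansion by 0.41 (0.0134), lower at differentiation than at quiescence by -0.37 (0.0253), lower at clonal expansion than at proliferation by -0.39 (0.0201, or -0.43, 0.0477, without proliferation experiment 2) and higher at quiescence than at proliferation by 0.39 (0.0486). Each of these smaller calls was lost when single libraries were left out. Differentiation against clonal expansion was lost without clonal expansion experiment 2 (0.31, 0.110) or either differentiation library (0.0622 and 0.0613). The comparison of differentiation with quiescence was lost without quiescence experiment 1 (-0.20, 0.155) or either differentiation library (0.0970 and 0.0954). Clonal expansion against proliferation was lost without proliferation experiment 1 (-0.34, 0.104) or clonal expansion experiment 2 (-0.29, 0.149). Quiescence against proliferation was still called without quiescence experiment 2, and its adjusted p was 0.0617 to 0.256 without each of the other 7 libraries, the highest without proliferation experiment 2 (0.34). Differentiation and proliferation did not differ beyond their spread (0.022 ± 0.13, 0.883). The value was -0.022 (0.918) without proliferation experiment 2 and -0.25 with every library scaled to the same total.

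Atf3 was lowest at clonal expansion and highest at differentiation. Atf3 (gene 11910, chr1:192994176-193007212, mm9), a stress-induced factor that represses as a pair with itself, had 351 and 613 pseudo-counts in the proliferation libraries, 289 and 276 in those of quiescence, 73.8 and 74.0 in those of clonal expansion and 809 and 647 in those of differentiation. The differentiation libraries were above all others and the clonal expansion libraries below all others, and proliferation lay above quiescence with no overlap. Atf3 was lower at clonal expansion than at quiescence (-1.92 ± 0.25, limma adjusted p = 8.41e-05) and than at proliferation (-2.63, 1.28e-05, or -2.23, 8.35e-05, without proliferation experiment 2). It rose 9.68-fold at differentiation against clonal expansion (3.27 ± 0.25, 1.35e-06) and by 1.35 against quiescence (0.000893). The smaller rise against proliferation (0.64, 0.0455; 1.04, 0.00357, without proliferation experiment 2) was lost without proliferation experiment 1 (0.24, 0.364), either clonal expansion library (0.0544 and 0.0541) or either differentiation library (0.242 and 0.0653), and with every library scaled to the same total (0.36, 0.221). Quiescence against proliferation was not called (-0.71, 0.0679), was -0.31 (0.460) without proliferation experiment 2, and was called without experiment 1 (-1.11, 0.00859).

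Batf3 (gene 381319, chr1:192922293-192932822, mm9), a short factor without an activation domain that pairs with Jun proteins and is known for its need in a class of mouse dendritic cells, was the scarcest member. It had 14.3 and 33.2 pseudo-counts in the proliferation libraries, 13.0 and 12.0 in those of quiescence, 41.3 and 32.7 in those of clonal expansion and 2.13 and 4.11 in those of differentiation. The differentiation libraries were the lowest, and clonal expansion overlapped proliferation. Batf3 was lower at differentiation than at clonal expansion (-3.24 ± 0.47, limma adjusted p = 0.000124), at quiescence (-1.76, 0.00743) and at proliferation (-2.52, 0.000808, or -1.94, 0.0101, without proliferation experiment 2). The fall against quiescence was lost without differentiation experiment 1 (-1.40, 0.0575). Batf3 rose at clonal expansion against quiescence (1.48, 0.0167), a call lost without quiescence experiment 2 (1.43, 0.0570) or clonal expansion experiment 1 (1.32, 0.0801), and with no filter on low values (0.0648). Clonal expansion (0.72, 0.200) and quiescence (-0.76, 0.271) were not called apart from proliferation, with values of 1.30 (0.0540) and -0.18 (0.879) without proliferation experiment 2. At these levels, a few reads set the values.

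At clonal expansion against quiescence, 4 members rose (Fosl1, Fosl2, Junb and Batf3) and 3 fell (Fosb, Jund and Atf3), beside 34.4% of all genes tested called higher and 34.4% called lower. The members' median was 0.28 on the log2 scale, against a median of -0.0061 for all genes. At differentiation against clonal expansion, 3 members rose (Fosb, Jund and Atf3) and 5 fell (Fosl1, Fosl2, Jun, Junb and Batf3), beside 36.8% and 36.2% of all genes, with a members' median of -1.43. These 2 comparisons share the clonal expansion libraries.

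At differentiation against quiescence, 2 members rose (Fosl1 and Atf3) and 5 fell (Fosl2, Jun, Junb, Jund and Batf3), beside 33.4% and 32.9% of all genes, and the members' median was -1.15. At differentiation against proliferation, Fosl1 and Atf3 rose and Fos, Fosb, Jun, Junb and Batf3 fell, beside 34.5% and 33.3% of all genes (members' median -1.65). The same 2 and 5 members were called without proliferation experiment 2, where 30.6% and 29.0% of all genes were. At clonal expansion against proliferation, 2 members rose (Fosl1 and Fosl2) and 3 fell (Fosb, Jund and Atf3), beside 32.7% and 32.1% of all genes (members' median -0.39). Without proliferation experiment 2, Junb joined those that rose, beside 29.5% and 29.2% of all genes. At quiescence against proliferation, 1 member rose (Jund) and 2 fell (Fosl1 and Junb), beside 11.9% and 11.8% of all genes, with a members' median of -0.76. Without proliferation experiment 2, limma called 0 of the 9 members (3 had an unadjusted p under 0.05), beside 4.51% and 4.40% of all genes. With so many genes called in the comparisons after the cocktail, counts of this size among 9 members say little about the members as a group. Comparisons that name the same stage share its libraries. With every library scaled to the same total, the split of all called genes moved: 3768 were higher and 6302 lower at clonal expansion against quiescence, in place of 5038 and 5033, and 3183 and 6400 against proliferation, in place of 4792 and 4708. At differentiation it was 3795 higher and 6314 lower against quiescence, in place of 4892 and 4825, and 3760 and 6518 against proliferation, in place of 5051 and 4876.

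**Figure D3:**
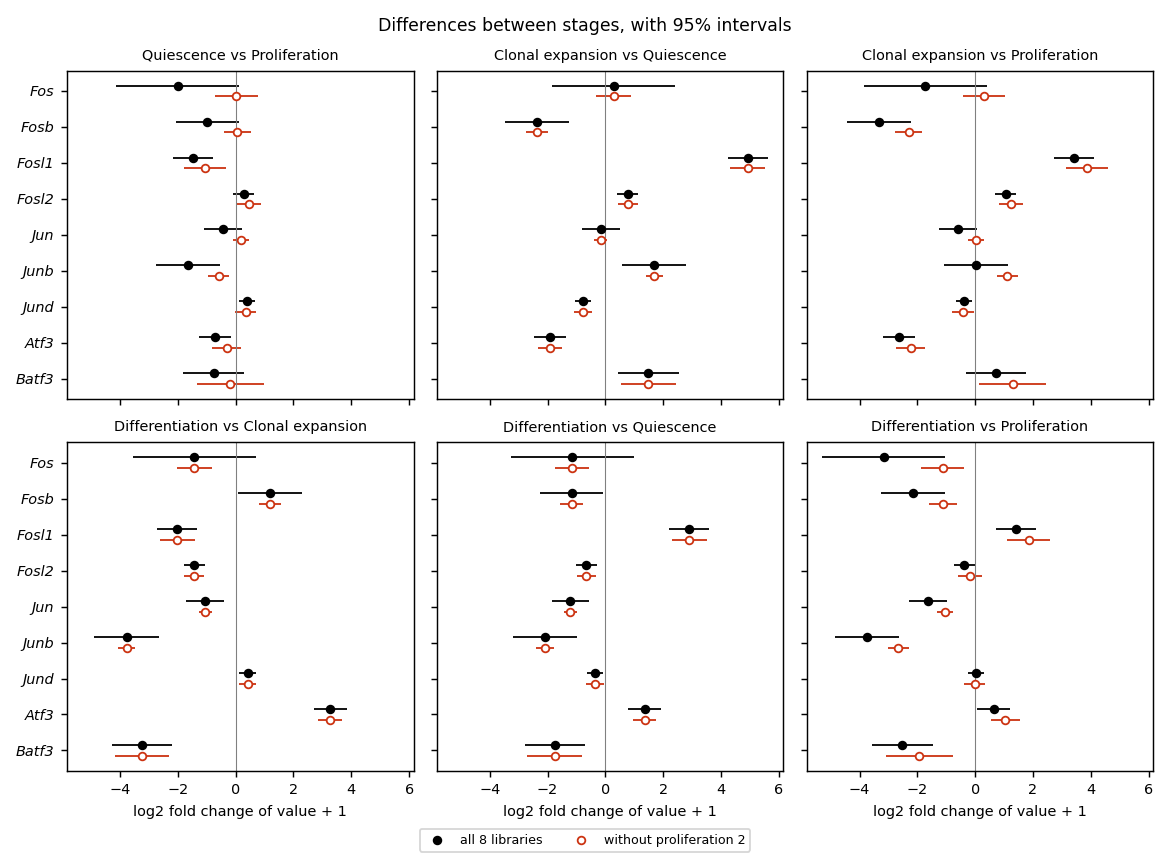
Log2 fold change (value + 1) of the 9 AP-1 genes in the 6 stage comparisons, later stage over earlier stage, with 95% intervals from limma. Filled points use all 8 libraries and open points leave out proliferation experiment 2. The filled intervals of Fos, Fosb, Junb and Batf3 are the widest in all 6 panels, and Fosl1 reaches 4.92 at clonal expansion against quiescence.

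The make-up of the family was compared per kb of transcript, so that genes of different length could be set side by side. Per kb, the 9 genes summed to 19138 and 54690.4 pseudo-counts in the proliferation libraries, 21068 and 18857 in those of quiescence, 33222 and 32553 in those of clonal expansion and 13451 and 12059.5 in those of differentiation. The sum was thus lowest at differentiation and, apart from proliferation experiment 2, highest at clonal expansion. Junb made up 7.03% and 7.53% of the sum at differentiation, against 38.6% and 38.4% at clonal expansion. Jund, the largest of the 9 at differentiation, took 43.0% and 48.0% there, against 14.0% and 12.5% at clonal expansion. At quiescence, Jund was also the largest (39.8% and 35.2%), and in proliferation experiment 2 Junb was (47.7%), with Fos at 17.2%. This ranking rests on the division by length. Jund was divided by 1668 bases, though its row spans a longer stretch, from 73221638 to 73224515. A longer length would lower its share. Without the division, Fosl2 was the largest at quiescence (29.4% and 38.2%), clonal expansion (34.1% and 38.0%) and differentiation (35.6% and 33.9%).

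Fosl1 held 15.7% and 9.04% of the per kb sum in the differentiation libraries and 18.5% and 18.8% in those of clonal expansion, against 0.999% to 2.21% in the 4 libraries before the cocktail. Fos held 1.83% to 3.60% in all libraries except proliferation experiment 2. Fosb, Atf3 and Batf3 were minor parts, with Atf3 at 3.03% and 2.71% at differentiation and at most 0.925% elsewhere. The 4 Fos genes together stood to the 3 Jun genes, per kb, as 0.201 and 0.328 in the proliferation libraries, 0.208 and 0.271 in those of quiescence, 0.525 and 0.588 in those of clonal expansion and 0.512 and 0.348 in those of differentiation. All 4 libraries taken after the cocktail had a higher ratio than the 4 taken before it. These are transcripts and not proteins, and the lengths are 1 value per gene from a later annotation.

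**Figure D4:**
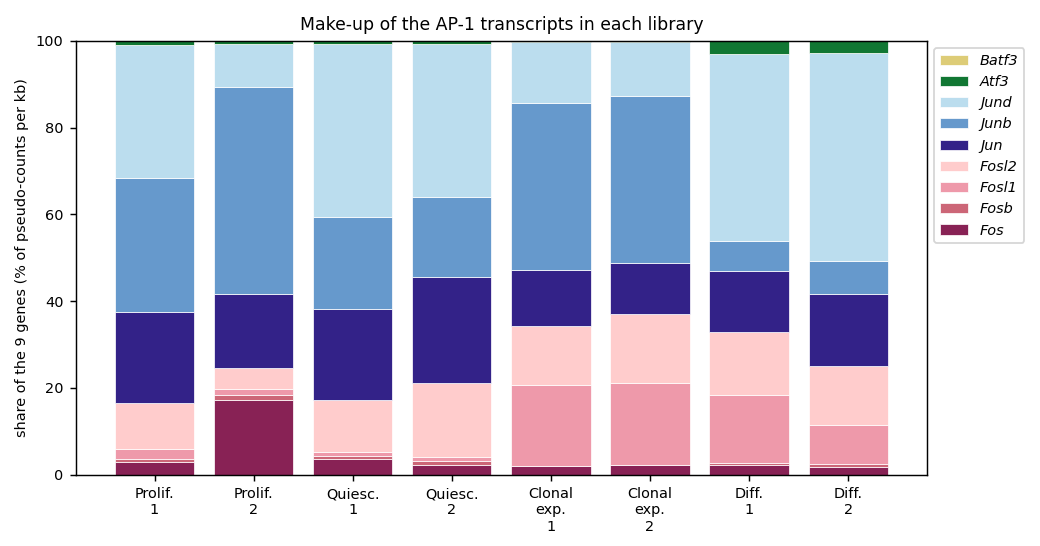
Share of each AP-1 gene in the per kb sum of the 9 (%, stacked bars, 1 bar per library, in stage order). The pink Fosl1 band is wide at clonal expansion and differentiation, Junb (mid blue) is the largest band at clonal expansion, and Jund (pale blue) the largest at quiescence and differentiation.

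For each member, the genes with the most similar course over the 8 libraries were found by Pearson's r of log2(value + 1) among genes with a mean of at least 200. The points are the same 8 libraries, 2 per stage, so each r is a description of shared steps between stages. Fos was most like Ier2, another immediate early gene (r = 0.992), which had 7248 and 48574 pseudo-counts in the proliferation libraries, 8902 and 6552 in those of quiescence, 10509 and 9431 in those of clonal expansion and 4865 and 4909 in those of differentiation. Zfp36, whose protein binds AU-rich RNA and speeds its decay, followed (0.938), then Nup37 (0.922). Fosb was most like Egr1 (0.988), which had 3324 and 3698 at clonal expansion, against 22974 and 21431 at quiescence, and like Klf6 (0.979) and Klf2 (0.971), which encode zinc finger factors. The nearest gene to Fos and the nearest to Fosb were thus immediate early genes, and Cyr61, among the 3 nearest to Jun, is another. For Fos, Fosb, Jun and Junb, the high value in proliferation experiment 2 weighs in r.

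Fosl1 was nearest to Ppp2r2a, a regulatory subunit of phosphatase 2A (r = 0.996), Ifrd1 (0.995) and Cdkn2aipnl (0.994). Ifrd1 had 26683 and 24379 pseudo-counts at clonal expansion, against 5971 and 5535 at quiescence. Fosl2 was nearest to AW146020 (0.991), Dnajb4, a heat shock co-chaperone (0.989), and Acer3 (0.981). Jun was nearest to Sept7, a septin (0.975), Cyr61, a secreted matrix protein (0.960), and Bcl10 (0.959), and Junb to Bicd2 (0.990), Phlda1 (0.989) and Rps23 (0.988), whose reads may be shared with near-identical copies. Jund was nearest to Hoxd9 (0.985), Psmb8 (0.985) and Hmg20b (0.980), and Batf3 to Tbx3 (0.989), Lsm5 (0.987) and Slc25a12 (0.987). Atf3 was nearest to Fhl1, a LIM domain protein (0.995), with 13667 and 13958 pseudo-counts at differentiation, against 2731 and 2612 at clonal expansion, then to Emilin2 (0.992) and Tbc1d23 (0.986). No member was among the 3 nearest genes of another.

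Of 38 genes listed as AP-1 targets from general knowledge, with earlier results of these data known, 34 were tested. They were on the whole lowest at differentiation, where they include proteases, their inhibitors, growth factors and cytokines. Against clonal expansion, 26 fell and 6 rose at differentiation, with a median of -2.82 on the log2 scale, against a median of -0.00033 for all genes. Of all genes tested, 36.2% fell and 36.8% rose in that comparison. Ereg, a ligand of the EGF receptor, had 346 and 353 pseudo-counts at differentiation, against 14149 and 15617 at clonal expansion (-5.41 ± 0.27, limma adjusted p = 6.99e-08). Timp1, an inhibitor of matrix proteases, had 1401 and 1341 at differentiation, against 38972 and 35060.1 at clonal expansion (-4.75). Plaur, the urokinase receptor, had 287 and 306 at differentiation, against 7273 and 6819.7 at clonal expansion (-4.56). The 6 that rose were Krt18, Mmp13, Vegfa, Hmox1, Egfr and Cdkn2a. Vegfa, an angiogenic growth factor, had 104696 and 73333 at differentiation, against 27764 and 25019 at clonal expansion (1.73). Krt18, a keratin, had 1711 and 801 at differentiation and under 1 pseudo-count in both clonal expansion libraries, so that its fold depends on the pseudocount. Differentiation was also the low stage for the listed targets against quiescence (23 fell, 7 rose, median -1.62) and against proliferation (25 fell, 5 rose, median -2.10), where 32.9% and 33.3% of all genes fell. Against proliferation 25 fell and 4 rose without proliferation experiment 2.

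The listed targets split at clonal expansion against quiescence, with 16 higher, 12 lower and a median of 0.34, beside 34.4% of all genes in each direction. Mt2, a metallothionein, had 220129 and 212264 pseudo-counts at clonal expansion, against 3883 and 3181 at quiescence (5.94 ± 0.14, limma adjusted p = 1.21e-08). Gclc, an enzyme of glutathione synthesis, rose by 3.58. Those that fell were led by Mmp13 (-2.73), Plau, the urokinase (-1.91), and Mmp3 (-1.85), all proteases, and Plau had 606 and 580.2 at clonal expansion, against 2403 and 2056 at quiescence. At clonal expansion against proliferation, 14 rose and 14 fell, with a median of 0.053, beside 32.7% and 32.1% of all genes. There 15 rose and 12 fell without proliferation experiment 2.

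At quiescence against proliferation, 14 listed targets fell and 4 rose, with a median of -0.47, beside 11.8% and 11.9% of all genes. Without proliferation experiment 2, 7 fell and 2 rose, with a median of -0.28, beside 4.40% and 4.51%. Ptgs2, the inducible cyclooxygenase, fell by 2.80 and had 553 and 795 pseudo-counts at quiescence, against 2141 and 9994 at proliferation, and the value without proliferation experiment 2 was -1.69 (limma adjusted p = 0.00379). Gja1, a gap junction protein (-1.53), also fell, and Mmp3 (1.09), Lox (0.82) and Vegfa (0.78) rose, of which Vegfa was not called without proliferation experiment 2 (0.66, 0.0855). In proliferation experiment 2, 5 of the 34, Ptgs2, Il6, Lif and Ereg among them, were at least 2-fold above experiment 1.

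**Figure D5:**
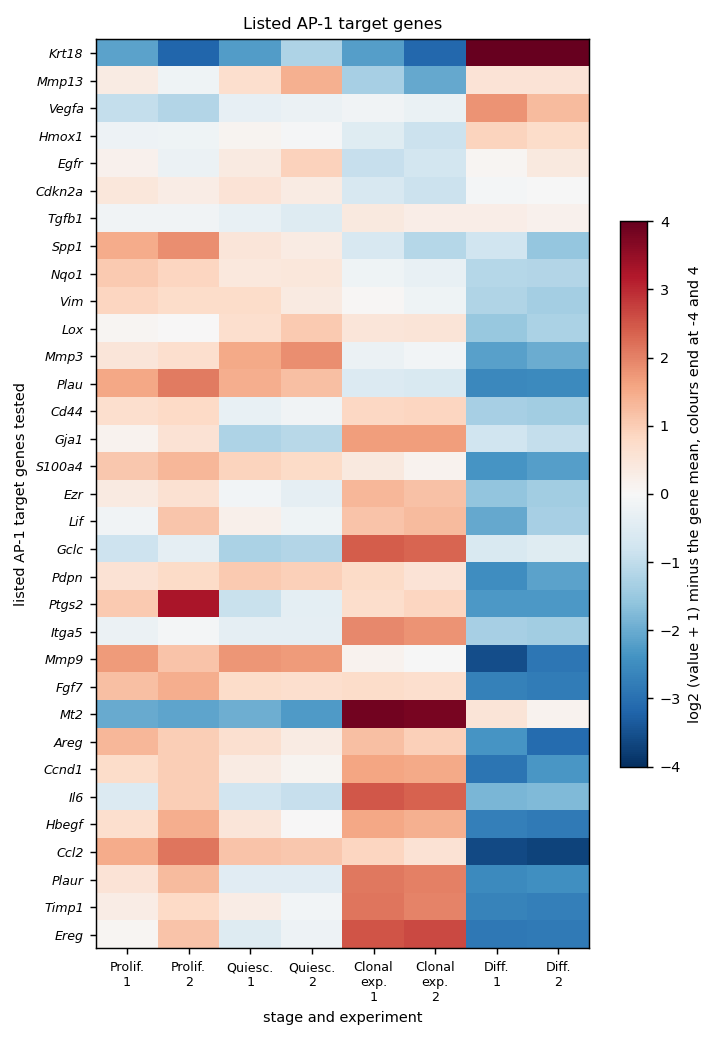
Of the 34 tested genes listed as AP-1 targets, 33 in each library (columns in stage order), as log2(value + 1) minus the gene's mean over the 8 libraries, with rows ordered by the change at differentiation against clonal expansion. Most rows are blue in both differentiation columns, and Mt2, Ereg, Il6 and Gclc are red at clonal expansion.

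Of the 24 other leucine zipper genes listed, which encode possible partners or competitors of AP-1 proteins, 23 were tested. Of these, 7 rose and 11 fell at clonal expansion against quiescence (median -0.17), beside 34.4% of all genes in each direction. Nfil3, a repressor of the same fold, had 17167 and 14994 pseudo-counts at clonal expansion, against 1503 and 1437 at quiescence (3.45 ± 0.11, limma adjusted p = 3.97e-08). The small Maf genes Maff (2.29) and Mafk (1.20), which pair with Fos proteins, rose, and Batf (-3.69) and Creb5 (-2.08) fell. Batf is a sister gene of Batf3 and had 0.922 and 2.33 pseudo-counts at clonal expansion, against 38.5 and 25.9 at quiescence. At differentiation against clonal expansion, 6 rose, led by Ddit3 (2.64), Batf (2.56) and Bach2 (1.00), and 7 fell, led by Mafk (-1.93), Nfil3 (-1.57) and Bach1 (-1.44), with a median of -0.019 (0.012 to 0.090 without single libraries of these stages). Of all genes, 36.8% rose and 36.2% fell in that comparison, and 34.5% and 33.3% did so at differentiation against proliferation. The counts were 8 up and 8 down at clonal expansion against proliferation (median 0.056), beside 32.7% and 32.1% of all genes. They were 7 up and 7 down at differentiation against quiescence (-0.073), beside 33.4% and 32.9%. At quiescence against proliferation they were 3 up, Batf and Maf among them, and 1 down (Mafk), with a median of 0.058, beside 11.9% and 11.8%. Leaving out proliferation experiment 2 took away the calls of Mafk (-0.37, limma adjusted p = 0.124) and Batf (2.13, 0.0630), experiment 1 gave 2 that fell, and without quiescence experiment 2 5 rose and the median was -0.029. At differentiation against proliferation they were 7 up and 7 down (0.071), or 4 down without proliferation experiment 2.

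The MAP kinase cascade, which phosphorylates AP-1 proteins and raises the transcription of their genes, was described by 23 tested of 24 listed kinases. Of these kinases, 12 rose at clonal expansion against quiescence (34.4% of all genes did so), led by Map3k5 (1.36) and Map2k2 (1.02), and 6 fell (34.4% of all genes), led by Map2k6 (-1.81), Mapk3 (-1.73) and Mapk12 (-1.14). Mapk3 (ERK1) had 6740.3 and 5989 pseudo-counts at clonal expansion, against 23827 and 18597 at quiescence. Differentiation against clonal expansion had 5 kinases that rose, beside 36.8% of all genes, and 8 that fell, beside 36.2%. The rises were led by Mapk3 (1.66) and Map3k5 (1.44) and the falls by Map2k2 (-0.95). The 5 were 2 without clonal expansion experiment 1 and 3 without either differentiation library. The kinases gave 12 up and 5 down at clonal expansion against proliferation, 8 up and 5 down at differentiation against quiescence, and 7 up and 5 down at differentiation against proliferation, the last 3 down without differentiation experiment 1. Of all genes, 32.7% rose and 32.1% fell at clonal expansion against proliferation. At differentiation, 33.4% rose and 32.9% fell against quiescence, and 34.5% and 33.3% did so against proliferation. At quiescence against proliferation 2 kinases rose (Map3k8 and Mapk7) and 1 fell (Map3k5), beside 11.9% and 11.8% of all genes. The fall was lost without any single library except quiescence experiment 1, 1 rose without proliferation experiment 1 or quiescence experiment 2, and without proliferation experiment 2 limma called 0 of the 23 (3 had an unadjusted p under 0.05).

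All 11 dual specificity phosphatases were tested. The phosphatases that rose at clonal expansion against quiescence were 6 and those that fell 3 (median 0.72), and at differentiation against clonal expansion 5 rose and 6 fell (median -1.10). Of all genes, 34.4% went each way in the first comparison, and 36.8% rose and 36.2% fell in the second. At quiescence against proliferation, 11.8% of all genes fell. Dusp1, itself an immediate early gene, had 14721 and 15011 pseudo-counts at clonal expansion, against 2146 and 1915 at quiescence (2.87 ± 0.43, limma adjusted p = 0.000188). Dusp14 (3.74) and Dusp6 (1.86) rose with it, and Dusp8 (-1.78), Dusp10 (-1.62) and Dusp16 (-0.69) fell. At differentiation, Dusp4 had 9813 and 9708, against 919.7 and 785 at clonal expansion (3.52), and Dusp5 fell by 3.07. Against proliferation, 5 fell at quiescence, led by Dusp8 (-1.75), Dusp4 (-1.35) and Dusp6 (-1.20), and 3 did without proliferation experiment 2 or without quiescence experiment 2.

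Of 29 tested among 30 other immediate early genes, 12 rose and 8 fell at clonal expansion against quiescence (median 0.40), beside 34.4% of all genes in each direction. Myc, a growth regulator, had 31529 and 30707 pseudo-counts at clonal expansion, against 3062 and 2794 at quiescence (3.41 ± 0.20, limma adjusted p = 5.22e-07), and Nr4a3 (4.60) and Rgs2 (3.57) also rose. The Egr genes went the other way, as Fosb did: Egr2 (-3.10), Egr1 (-2.66) and Egr3 (-2.25) fell. At differentiation against clonal expansion 8 rose, led by Egr2 (3.81), Btg2 (3.21) and Arc (1.91), and 15 fell, led by Cyr61 (-4.13), Nr4a3 (-3.72) and Plk2 (-3.51), beside 36.8% and 36.2% of all genes. The 8 were 5 without either clonal expansion library or without differentiation experiment 2. At clonal expansion against proliferation, 11 rose and 12 fell, beside 32.7% and 32.1% of all genes. The median of -0.33 became 0.41 without proliferation experiment 2. Of all genes, 34.5% rose and 33.3% fell at differentiation against proliferation, and 11.9% and 11.8% did so at quiescence against it. At differentiation against proliferation 6 rose and 14 fell (median -0.80), and 11 rose without proliferation experiment 2. At quiescence against proliferation 2 rose and 4 fell (median -0.59), and these values depended on proliferation experiment 2. Without it, Nr4a1 (0.95), Egr2 (0.88), Egr3 (0.66), Egr1 (0.46), Zfp36 (0.11) and Ier2 (0.075) lay above 0 on the log2 scale. Others of the list stayed below 0 without it, such as Arc (-1.50), Myc (-0.68) and Plk2 (-0.62).

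Serum response factor acts with its cofactors on the promoters of Fos and other immediate early genes, and its 7 listed genes were tested. At differentiation, 3 fell against clonal expansion, Mkl1 (-1.75), Elk3 (-1.06) and Srf (-1.03), and Elk1 rose (0.64), beside 36.2% and 36.8% of all genes, with 2 that rose without either quiescence library or without clonal expansion experiment 2. Srf had 4631 and 5166 pseudo-counts at differentiation, against 10268.5 and 9709 at clonal expansion. Of all genes, 34.4% went each way at clonal expansion against quiescence. Mkl1 rose by 0.39 at clonal expansion against quiescence and Myocd (-1.34) and Elk3 (-0.95) fell, with 5 that fell without quiescence experiment 1. The Mkl1 call was lost without clonal expansion experiment 2. Differentiation against quiescence had 5 of the 7 lower and 1 higher (median -1.13), beside 32.9% and 33.4% of all genes. Against proliferation, 5 fell and 0 rose at differentiation (median -0.99) and at clonal expansion (median -0.45), where 33.3% and 32.1% of all genes fell. At quiescence against proliferation, Elk3 (-0.36) and Mkl1 (-0.34) fell, where 11.8% of all genes fell. Limma called 0 of the 7 without proliferation experiment 2 (1 had an unadjusted p under 0.05) or without either clonal expansion library (3 each), and 5 fell without quiescence experiment 2.

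The integrated stress response, in which Atf3 is a known target of Atf4, and the heat shock genes were listed as measures of stress. All 10 heat shock genes were called at clonal expansion against quiescence, 8 of them higher, led by Hsph1 (2.73), Hspb1 (2.60) and Hspd1 (2.24), and the inducible Hspa1a (-0.49) and Hspa1b (-0.48), near-identical copies whose reads may be shared, lower (1 of them called without clonal expansion experiment 1), beside 34.4% of all genes in each direction. At differentiation against clonal expansion 7 fell, led by Hsph1 (-3.20), where 36.2% of all genes fell and 36.8% rose. Of the 14 stress response genes, 8 rose and 2 fell (1 without clonal expansion experiment 1 or differentiation experiment 2) at differentiation against clonal expansion (median 0.52), the rises led by Trib3 (3.25), Chac1 (2.71) and Ddit3 (2.64). Ddit3 had 19217 and 10561 pseudo-counts at differentiation, against 2330.2 and 2243 at clonal expansion. Chac1 (-2.19), Trib3 (-2.001) and Ddit3 (-1.74) were, at clonal expansion against quiescence, the leading falls of 4, and 5 rose, led by Ddit4 (1.24). Of all genes, 11.8% fell and 11.9% rose at quiescence against proliferation. At quiescence against proliferation, 4 heat shock genes and 5 stress response genes fell and 1 stress response gene rose, and without proliferation experiment 2 the falls were 1 and 2. Without quiescence experiment 2 they were 2 and 3, with 2 stress response genes that rose, and without proliferation experiment 1 the stress response falls were 3.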

How the data were processed

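RNA was measured in 8 libraries of 3T3-L1 cells, 2 at each of 4 stages. Per the labels' protocols, the TruSeq libraries were unstranded, from total RNA, and gave single reads of 100 nt. The deposited values are a signal per gene, pseudo-counts that the authors made with edgeR and relative log expression scaling, and the submitters' processing notes name CASAVA 1.8.2, edgeR and mm9. Which aligner and gene models were used is not given in the sources used here. No count method was applied, because the values could not be turned back into whole reads. The columns of the table matched the labels' stage and experiment number.

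With R 4.3.3 and limma 3.58.1, log2(value + 1) of the 14647 genes with a mean of at least 10 was fitted with 1 coefficient per stage, using all 8 libraries and a trend of variance on mean (4 residual and 9.78 total degrees of freedom). Tests were two-sided, Benjamini-Hochberg adjusted over all genes tested, with a threshold of 0.05, and the median standard error was 0.142. The fit was checked on simulated data. An exact permutation test of 2 libraries against 2 cannot go below p = 0.333 and was not used. Python 3.11.15 with pandas 2.3.3, numpy 2.4.6 and matplotlib 3.10.9 read and plotted the tables. Transcript lengths, from a later mouse annotation matched by symbol, were had for 90.0% of genes.

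The members and the 8 lists of related genes and 5 of markers were chosen with earlier results of these data known. The lists share members, such as Srf, Maff, Dusp1, Ddit3, Atf4 and Atf5. Named genes were all 9 members, the 3 genes most like each member, and up to 3 called genes per list, comparison and direction with the largest change. A few of the genes so chosen are not reported here. The 6 target genes that rose at differentiation, and the genes named for proliferation experiment 2, went beyond this rule and were chosen after their values were seen. The experiment numbers were not taken as pairing the libraries.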

Additional observations from a re-analysis of the deposited data

How the results depend on the processing

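With a pseudocount of 5 or 0.1, 53 and 52 of the 54 member values kept their direction and side of the threshold. Without the filter on low values, limma called 1757 genes at quiescence against proliferation, with 0 members (2 had an unadjusted p under 0.05) and 14 genes of the lists, and the members called were 5 at differentiation against clonal expansion, 3 against quiescence and 3 against proliferation. At clonal expansion it ended the calls of Junb (0.137) and Batf3 (0.0648) against quiescence and of Jund (0.0818) against proliferation. At differentiation against quiescence it ended those of Fosl2 (limma adjusted p = 0.0575), Jun (0.0750), Junb (0.0797) and Jund (0.0921). Of the 54 member values, 17 lost their call in this way. Without the mean-variance trend, 1 member was called at quiescence against proliferation. A fit of only the 4 libraries compared called 1942 genes and 1 member there. Leaving out each library in turn gave 1304 to 3536 genes, 0 to 6 members and 24 to 64 list genes at quiescence against proliferation, and 5 to 9 members at differentiation against clonal expansion. The Fos to Jun ratio, not divided by length, was 0.477, 0.617, 1.04 and 0.886 from proliferation to differentiation, and per kb 0.265, 0.240, 0.556 and 0.430.

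Leaving out each library in turn turned some member values round. The range was -4.05 (without proliferation experiment 1) to 0.027 (without experiment 2) for Fos, -2.003 to 0.053 for Fosb and -1.04 to 0.18 for Jun at quiescence against proliferation. At clonal expansion against proliferation it was -3.77 to 0.31 for Fos, -1.20 to 0.022 for Jun and -1.04 to 1.10 for Junb. For Fos at clonal expansion against quiescence it was -0.14 to 0.70, and for Jund at differentiation against proliferation -0.022 to 0.067. Scaling to the same total gave -0.25 for Junb at clonal expansion against proliferation and -0.25 for Jund at differentiation against proliferation, and quantile normalization -0.25 and -0.10. Removing the trend with transcript length, chosen after seeing the data, gave -0.083 for Jund. Scaling to the same total moved the median gene by -0.23 (clonal expansion against quiescence), -0.27 (against proliferation), -0.23 (differentiation against quiescence) and -0.27 (against proliferation), and quantile normalization moved the differentiation comparisons by -0.10 to -0.12. For the other changes the cause was not tested.

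Same-numbered libraries deviated together at r = 0.0126 to 0.354 between stages, with 2 of 6 pairs of stages above 0.1, so the numbers were not taken as pairing. With the replicate block, 4005 genes were called at quiescence against proliferation, 10378 and 9854 at clonal expansion against quiescence and proliferation, and 10931, 10068 and 10209 at differentiation against clonal expansion, quiescence and proliferation. Of the member values, 52 of 54 were as without the block, and Fosb against quiescence (0.0447) and Fosl2 against proliferation (0.0365) passed the threshold at differentiation. Depth limits Batf3 at differentiation, where it had 2.13 and 4.11 pseudo-counts.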
